A study of Mus musculus with 20 samples.

Results

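Culture-specific open regions are stretches of chromatin that were accessible in mouse epidermal cells grown in culture and in none of the groups of cells sorted directly from skin. Accessibility was read by ATAC-seq, in which the transposase Tn5 cuts and tags DNA that is not packed away in nucleosomes. The peaks of 10 lists, 1 list per group of 2 libraries, were merged wherever they overlapped by at least 1 bp, which gave 101406 union regions. A union region was a member if a peak of both cultured lists and no peak of the other 8 lists overlapped it. This held for 7859 regions, 7.75% of all union regions. The members were thus chosen by the presence and absence of peaks in these same lists, and their presence in culture is the rule and not a finding.

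All 20 libraries were labelled as Lrig1 GL Sca1+ cells of the epidermis of Lrig1CreER/Rosa-TdTomato mice. In that genotype a Cre recombinase that tamoxifen activates is driven from Lrig1, a gene of the upper hair follicle, and leaves a red fluorescent mark in the cells and their descendants. Sca1 is a surface protein of upper follicle and interfollicular keratinocytes. One cultured group came from the control, non-memory region and the other from the distal memory region, and the library titles of both read 8 weeks after the first wound. The 8 groups that were not labelled as cultured, called fresh here, were homeostasis, 1 week and 8 weeks after a first wound, 1 week after a second wound, vehicle, PRT4165 (a small molecule that inhibits ubiquitination of histone H2A by the Polycomb complex PRC1), UVB, and wound with UVB. The sources used here do not state age, sex, the medium, the days in culture or the number of animals. No label ties a cultured library to a fresh one, so culture, its handling and batch cannot be told apart for any value below.

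Keratinocytes that are moved from skin to a dish leave their basement membrane niche, spread, migrate and divide, and they are known to take up features of a healing wound. Transcription factors of the AP-1 family, pairs of Fos and Jun proteins that bind TGANTCA, can open closed chromatin at distal enhancers in such cells, often beside RUNX and TEAD factors. Promoters of housekeeping genes are mostly rich in CpG and open in every cell type, whereas enhancers are the part of the open chromatin that differs between cell states.

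Motifs were searched in windows at promoters only, so most members were not searched. TGANTCA was in 49 of the 216 windows that members alone overlapped, and the promoters that follow carry it. They are the 8 protein-coding promoters, predicted genes left out, with the highest signal value in the control culture among those that culture-specific regions alone overlapped and that held TGANTCA, on either strand, in the 250 bases before the start of transcription. Each is printed 5′ to 3′ on the strand of its gene from RefSeq on GRCm38.p6, the assembly of mm10, with the match in capitals.
Ifi203, chr1:173942673-173942922, minus strand: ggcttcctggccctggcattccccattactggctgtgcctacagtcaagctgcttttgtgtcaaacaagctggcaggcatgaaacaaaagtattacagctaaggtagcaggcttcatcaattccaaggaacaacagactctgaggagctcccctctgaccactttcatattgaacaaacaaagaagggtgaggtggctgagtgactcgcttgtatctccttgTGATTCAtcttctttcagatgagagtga
Gpr39, chr1:125676746-125676995, plus strand: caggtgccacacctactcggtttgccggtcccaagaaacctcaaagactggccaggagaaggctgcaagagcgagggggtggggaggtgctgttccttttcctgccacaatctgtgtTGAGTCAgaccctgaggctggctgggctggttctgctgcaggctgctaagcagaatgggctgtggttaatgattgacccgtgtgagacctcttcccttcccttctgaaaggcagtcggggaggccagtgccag
Mmp1b, chr9:7388027-7388276, minus strand: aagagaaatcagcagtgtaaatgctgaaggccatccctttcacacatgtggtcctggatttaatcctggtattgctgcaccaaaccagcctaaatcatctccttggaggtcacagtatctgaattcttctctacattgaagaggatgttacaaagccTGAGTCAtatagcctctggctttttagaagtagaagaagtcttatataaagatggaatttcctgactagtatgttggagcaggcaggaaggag
Ctla2b, chr13:60897448-60897697, minus strand: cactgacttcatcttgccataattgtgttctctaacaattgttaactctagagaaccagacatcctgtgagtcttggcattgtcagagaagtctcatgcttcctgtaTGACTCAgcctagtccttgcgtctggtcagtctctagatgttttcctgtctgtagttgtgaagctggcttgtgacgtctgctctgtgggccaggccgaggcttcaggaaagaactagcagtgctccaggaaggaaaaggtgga
Krtap5-4, chr7:142303252-142303501, plus strand: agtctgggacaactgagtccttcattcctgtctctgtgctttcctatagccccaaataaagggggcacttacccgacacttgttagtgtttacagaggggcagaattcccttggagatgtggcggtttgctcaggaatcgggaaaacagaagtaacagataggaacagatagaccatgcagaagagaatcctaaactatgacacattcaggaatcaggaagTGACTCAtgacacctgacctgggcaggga
Sh2d1b1, chr1:170277068-170277317, plus strand: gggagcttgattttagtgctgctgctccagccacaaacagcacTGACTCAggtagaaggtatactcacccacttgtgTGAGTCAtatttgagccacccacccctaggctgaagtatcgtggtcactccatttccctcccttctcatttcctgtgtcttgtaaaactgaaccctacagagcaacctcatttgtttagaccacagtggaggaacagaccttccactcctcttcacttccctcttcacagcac
Mndal, chr1:173880188-173880437, minus strand: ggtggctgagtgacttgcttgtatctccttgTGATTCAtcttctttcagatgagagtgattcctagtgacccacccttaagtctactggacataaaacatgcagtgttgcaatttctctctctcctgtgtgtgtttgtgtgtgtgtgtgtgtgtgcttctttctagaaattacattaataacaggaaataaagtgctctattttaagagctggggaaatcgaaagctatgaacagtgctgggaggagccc
Psg18, chr7:18355008-18355257, minus strand: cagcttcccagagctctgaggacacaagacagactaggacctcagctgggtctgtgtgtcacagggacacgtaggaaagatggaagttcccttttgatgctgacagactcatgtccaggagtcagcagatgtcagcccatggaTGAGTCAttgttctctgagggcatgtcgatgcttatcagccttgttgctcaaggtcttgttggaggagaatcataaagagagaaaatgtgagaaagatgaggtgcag

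For contrast, 3 promoters of members that hold no TGANTCA in the same stretch are shown because their genes recur below: the downstream start of Cdkn2a, which encodes cell cycle inhibitors, Krt8, a keratin of simple epithelia, and Timp1, an inhibitor of matrix metalloproteinases.
Cdkn2a, chr4:89282193-89282442, minus strand: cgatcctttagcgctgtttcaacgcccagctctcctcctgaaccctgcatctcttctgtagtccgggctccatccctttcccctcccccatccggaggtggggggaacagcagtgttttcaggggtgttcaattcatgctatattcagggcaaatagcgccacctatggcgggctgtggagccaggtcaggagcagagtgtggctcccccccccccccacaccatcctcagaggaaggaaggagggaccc
Krt8, chr15:102004343-102004592, minus strand: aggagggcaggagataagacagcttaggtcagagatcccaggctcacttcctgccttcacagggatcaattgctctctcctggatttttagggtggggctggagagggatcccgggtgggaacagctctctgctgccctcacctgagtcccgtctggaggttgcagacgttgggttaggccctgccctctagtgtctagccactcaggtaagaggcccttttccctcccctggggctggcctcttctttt
Timp1, chrX:20869916-20870165, plus strand: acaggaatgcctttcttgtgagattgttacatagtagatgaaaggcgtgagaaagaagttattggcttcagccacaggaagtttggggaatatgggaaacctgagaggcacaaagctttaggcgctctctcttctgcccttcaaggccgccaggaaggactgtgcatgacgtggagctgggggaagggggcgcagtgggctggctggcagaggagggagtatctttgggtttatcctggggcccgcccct

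Regions of both cultured lists were mostly in none or in all of the fresh lists. Of the 41261 union regions that both cultured lists held, 7859 (19.0%) were in 0 fresh lists and 19075 (46.2%) in all 8, while each count from 1 to 7 fresh lists took between 1386 and 3387 regions. Members made up 14.8% of the union regions of the control culture list and 17.6% of those of the distal list. The cultured lists also held 4821 regions in the control list alone and 1319 in the distal list alone, again with no fresh peak. The lists differed in length, from 34644 merged regions at 8 weeks to 73340 with UVB, with 54188 in the control culture and 45714 in the distal culture. The depth of sequencing was not known, so a region absent from a short list cannot be told apart from one that was open below its threshold. The lists are labelled as conservative IDR peaks, a label for peaks that agree between replicates. An absent region thus cannot be told apart, either, from one on which the 2 libraries of the group disagreed. Each list stands for both libraries of its group, so replicate error could not be measured and no test between groups was run.

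**Figure D1:**
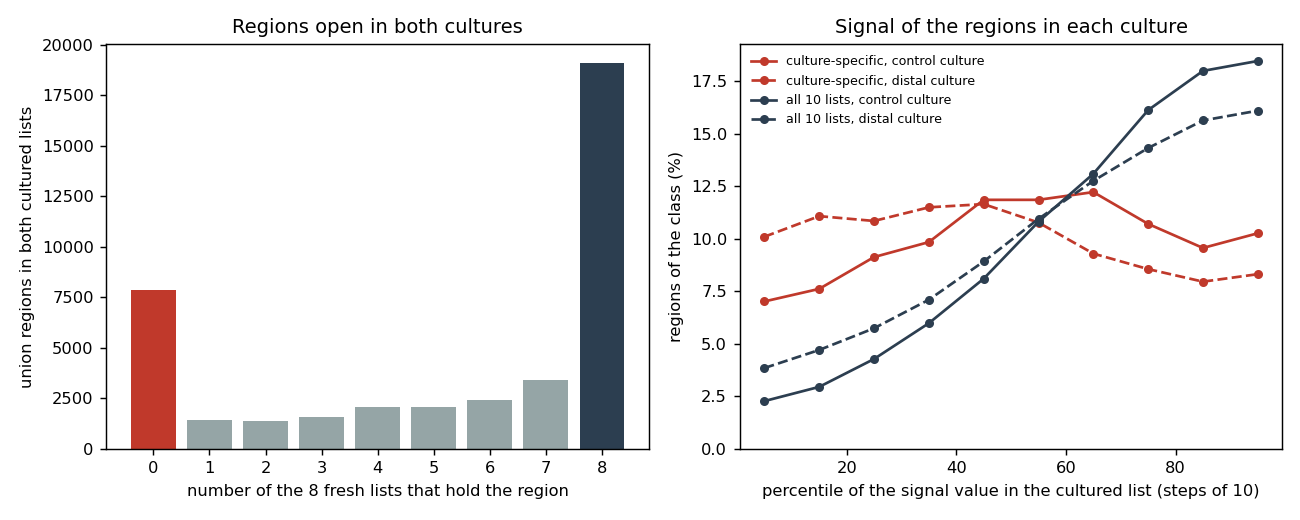
Left, the number of union regions held by both cultured lists (y axis) by how many of the 8 fresh lists also held them (x axis): the bar at 0 holds the 7859 members and the bar at 8 the 19075 regions of all 10 lists. Right, the percent of the regions of a class (y axis) in each step of 10 percentiles of the signal value within a cultured list (x axis), for members and for regions of all 10 lists: members spread over all steps, with 10.3% in the top step of the control list against 18.5% of the regions of all 10 lists.

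Just outside the rule lay 1425 regions that both cultured lists and 1 fresh list held. That list was UVB for 571 of them, vehicle for 297, PRT4165 for 288 and wound with UVB for 242, the 4 longest lists, and it was the 1-week list for 10, the second-wound list for 12, homeostasis for 4 and the 8-week list for 1. The strongest of them lay near Sema3a, a guidance cue, at chr5:13667422-13668094 with signal values of 33.2 in the control culture, 31.1 in the distal culture and 5.91 with PRT4165. Just inside it, 282 members had a fresh region within 200 bp and 1091 (13.9%) within 1 kb. The median member lay 7537 bp from the nearest region of any fresh list, and 649 lay farther than 100 kb from one.

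Members lay in the middle of the range of strength in the cultures. The authors' signal value, a measure of enrichment per peak, had a median of 9.57 in the control culture list and 9.03 in the distal list, at median percentiles of 53.8 and 45.5 within those lists. Regions of all 10 lists had medians of 12.3 and 11.9. Regions of the control culture alone had a median of 6.14, and those of the distal culture alone 6.33. Members were narrower than regions of all 10 lists, with a median of 516 bp against 1012 bp. The merged width of a region grows with the number of lists that hold it, and regions of 1 cultured list alone had medians of 327 and 298 bp.

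The rule asks for a peak in both cultured lists, which favours members whose peaks match, so the closeness of the cultures is a description. The summits in the control and distal culture lay a median of 8 bp apart, and 98.1% of members had them within 100 bp. Signal values of the cultures had a Spearman rank correlation across members of 0.905 (n = 7859), against 0.946 across the 19075 regions of all 10 lists. These points are regions of the same libraries and not independent replicates. Of the members, 579 were in the top 10% of both lists by signal.

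Of the 6 strongest members in each cultured list, all but one, at Styk1 and described below, lay over 1 kb from a gene end. The highest signal in the control culture, 32.0, was at chr10:34464300-34464743, 18906 bp from the end of Frk, a Src-related tyrosine kinase of epithelia, and its value in the distal culture was 27.8. Next came a region inside Phex, a phosphate-regulating endopeptidase, at 31.5 and 28.2. A region 503751 bp from Car10 had 30.05 and 26.5, and a region 197405 bp from Atp10a had 29.3 and 31.6, the highest signal in the distal list. These 2 lay in gene deserts, as did a region 257682 bp from Mef2c with 29.0 and 27.96. Rgs13, a regulator of G protein signalling, had a member 51091 bp away at 29.1 and 26.4. In the distal list, a member 5830 bp from Ifih1, the viral RNA sensor MDA5, had 28.5, and its control value was 26.6. Another lay 699900 bp from Ttll7 at 29.0 against 26.5 in the control culture, and a region inside Il1rapl2 had 28.2 in both. In each of these the values of the cultures were alike in rank, all at or above percentile 99.6 of their list.

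Few members sat at gene ends. The summit of 326 members, 4.15% (Wilson 95% interval 3.73 to 4.61), lay within 1 kb of an end of a protein-coding gene, against 14.3% of all union regions and 42.3% (41.6 to 43.0) of regions of all 10 lists. Regions of the fresh lists alone had 5.88% (5.66 to 6.10). Intervals here and below cover counting error only. Gene deserts held more of them: 16.0% (15.2 to 16.8) of members lay outside genes and over 100 kb from any gene end, against 9.36% of all union regions, 11.0% of regions of the fresh lists alone and 4.40% of regions of all 10 lists. A share of 44.7% lay inside a gene, against 51.1% of all union regions. The median distance to a gene end was 30110 bp, against 16553.5 bp over all union regions. Gene spans were used without exons, introns or UTRs, which were not separated here.

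**Figure D2:**
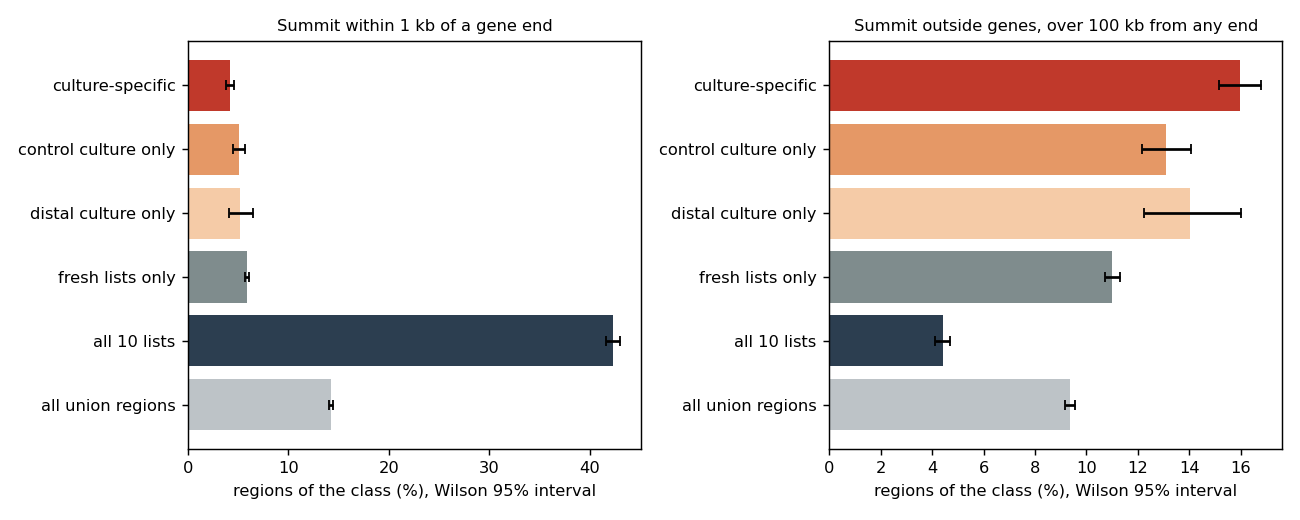
Percent of the regions of each class (bars, with Wilson 95% intervals) whose summit lay within 1 kb of a protein-coding gene end (left) or outside genes and over 100 kb from any end (right). Members have the lowest share at gene ends, 4.15%, and the highest in gene deserts, 16.0%, though at gene ends their interval overlaps those of both classes of 1 culture alone and in deserts that of the distal culture alone, while regions of all 10 lists have 42.3% and 4.40%.

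The strongest members within 1 kb of a gene end belonged to Styk1, a receptor-like kinase, with 27.4 in the control and 28.8 in the distal culture at 432 bp from the end. Pth2r, a parathyroid hormone receptor, had 21.4 and 19.7. Cntf, a neurotrophic cytokine, had 21.4 and 21.8. Nr1d2, a clock repressor, had 21.1 and 19.0, and Pts, an enzyme of tetrahydrobiopterin synthesis, had 20.7 and 20.5. Krtap1-5, a keratin-associated protein of the hair shaft, had 20.5 and 17.2 at 720 bp from an end. The summit of that region lay only 37 bp from the start of the noncoding gene Gm32730. All 6 were picked for their signal in the control culture, and they do not stand for the other members at gene ends.

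The few members at promoters differed in motifs from promoters open in all 10 lists, but their share with TGANTCA was close to that of promoters open in 1 culture alone. Promoter windows of 300 bases, from 250 before to 50 after a RefSeq start, were overlapped by a union region in 15289 cases, and in 216 of them, 1.41%, by culture-specific regions alone. These 216 windows belonged to 207 genes, 119 of them protein-coding, and to 197 regions, so neighbouring windows shared regions. TGANTCA was present in 49 of the 216, 22.7% (17.6 to 28.7), against 7.81% (7.52 to 8.10) of all 32851 promoter windows of the table. It was in 4.78% of windows under regions of all 10 lists, in 9.24% (7.95 to 10.7) under regions of the fresh lists alone and in 9.07% of windows with no region. Windows under regions of the control culture alone had 20.7% (14.2 to 29.2). The share was 13.8% when the strongest 50% of each list were used, 14.2% when only homeostasis and the wound time course served as fresh lists, and 40.0% for the strongest 50% of the cultured lists. A match is a description of the letters and does not show that a factor was bound.

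The matches lay close to the summit, the point of highest accessibility in a region. Where a window had more than 1 member region, as at Msh4, the nearest was used. In 47 of the 49 windows a match was inside a region, and the median distance from the nearest match to the summit was 29 bp. The share within 50 bp of the summit was 71.4% (57.6 to 82.2) in these windows. It was 39.3% (35.1 to 43.6) in the 494 windows with a match under regions of all 10 lists, and 36.8% (29.6 to 44.6) in 155 windows under regions of the fresh lists alone. In the windows of the control culture alone it was 78.3% (58.1 to 90.3), from 23 windows. Regions of these classes also differ in width, and the part of width in these shares was not tested.

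In all, 16 motifs were searched. The interval of the culture-specific windows lay above the share of all promoter windows for 4 of them, AP-1 included, below it for 1, and included it for 11. Among the 11 were the E-box of basic helix-loop-helix factors, read as CAGCTG, with 17.6% of these windows against 16.3% of all windows, and the CCAAT box, with 40.3% against 37.4%. The RUNX core TGTGGT was in 30.1% (24.4 to 36.5) of the culture-specific windows against 16.8% of all windows, 11.2% under regions of all 10 lists, 14.2% under regions of the fresh lists alone and 20.7% of windows with no region. The TEAD core GGAATG was in 22.2% (17.2 to 28.2) against 14.7%, 11.2%, 15.9% and 16.7%. Regions of the control culture alone had 18.9% (12.7 to 27.2) for it and those of the distal culture alone 24.0% (14.3 to 37.4), and the members' interval overlaps that of the fresh lists alone (14.2 to 17.7). In windows of protein-coding genes the share for TEAD was 18.9% (12.9 to 26.7) against 13.6% of all such windows, which the interval includes. The NRF and MAF motif TGACNNNGC was in 17.1% (12.7 to 22.7) against 12.4% of all windows, 15.02% under regions of all 10 lists and 12.7% under regions of the fresh lists alone. For protein-coding genes its share was 17.2% (11.5 to 24.9) against 13.0% of all such windows, which the interval includes. The KLF and SP motif GGGCGG was in 31.0% (25.2 to 37.5) against 35.7% of all windows, which the interval includes, 69.5% under regions of all 10 lists, 39.5% under regions of the fresh lists alone and 11.9% of windows with no region. The ETS motif CCGGAAG was in 3.24% (1.58 to 6.54) against 8.86% and 20.4%, close to the 2.80% under regions of the fresh lists alone and the 2.54% of windows with no region. All motifs were searched on both strands. The RUNX, TEAD, KLF and SP, and ETS patterns do not contain TGANTCA. A match of TGACNNNGC can hold all of it, as TGACTCAGC does in the Ctla2b promoter printed above. The NRF and MAF share is thus not separate from the AP-1 share, and the part of such shared matches was not tested. The windows also differed in base composition, which moves motif counts: the median GC content was 51.3% in the culture-specific windows and 62.3% under regions of all 10 lists, with observed to expected CpG ratios of 0.313 and 0.804. The part of base composition in the motif shares was not tested.

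**Figure D3:**
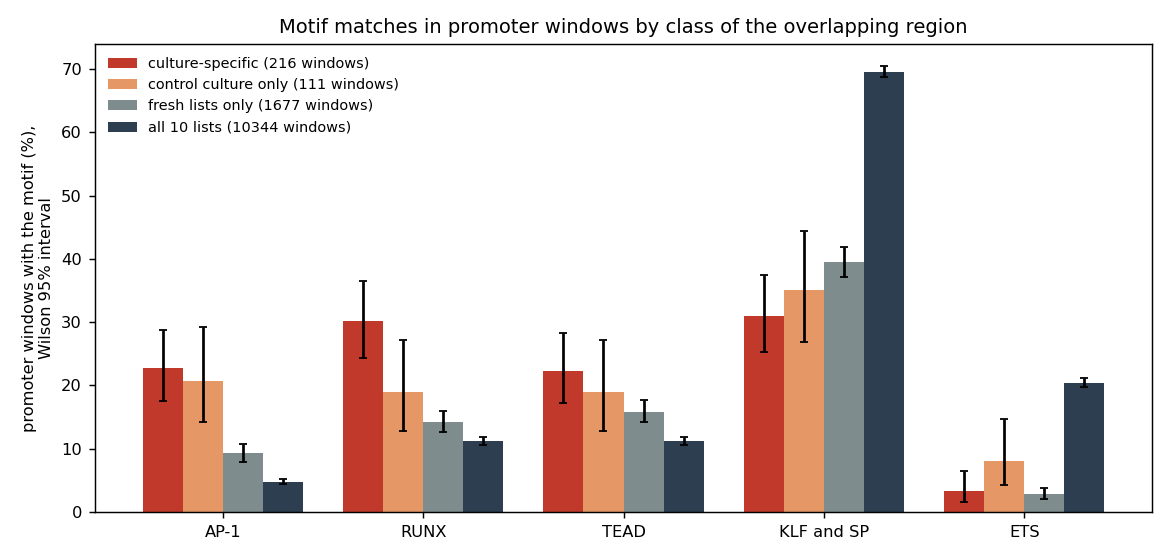
Percent of promoter windows (y axis, bars with Wilson 95% intervals) that hold each motif (x axis), by the class of the region that overlaps the window. TGANTCA (AP-1), TGTGGT (RUNX) and GGAATG (TEAD) have their highest shares of the 4 classes plotted in the 216 culture-specific windows, at 22.7%, 30.1% and 22.2%, with intervals that overlap those of the control culture alone, and the KLF and SP and ETS motifs under regions of all 10 lists, at 69.5% and 20.4%.

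The following genes of these promoters were picked after their values were seen and stand for no group of the 207. Ifi203 and its neighbours Mndal, Ifi211 and Ifi205, interferon-inducible genes of the p200 family on chromosome 1, had promoter signals of 20.1, 13.4, 12.1 and 11.9 in the control culture and 19.0, 12.04, 11.6 and 9.02 in the distal culture. As these genes are paralogs in 1 cluster, reads could be shared between copies and the values are uncertain. Gpr39, a zinc-sensing receptor, had 18.7 and 17.8, with its TGANTCA printed above 9 bp from the summit. Mmp1b, of the collagenase branch of the metalloproteinases, had 17.2 and 15.5. Timp1 had 10.1 and 9.30. Kdr, a VEGF receptor, had 10.5 and 7.99, and Spp1, which encodes osteopontin, had 8.95 and 8.48. The downstream start of Cdkn2a, that of the inhibitor p16INK4a, had 8.53 and 8.88. Lin28b, an RNA-binding protein of fetal cells, had 8.21 and 8.65, Prom1 had 6.34 and 7.26, and Hoxa13, a limb and genital Hox gene, had 6.14 and 6.01. Krt8 had 5.08 and 4.99, which is low: its control value is at percentile 8.89 of the list.

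A member was assigned to the protein-coding gene whose span held its summit. If there was none, it went to the closest gene end, up to 100 kb away. At least 1 member was assigned to 4143 of the 16739 genes with a region, 24.8%, and members were 7.19% of the 91914 assigned regions. Position alone made the assignment, and a region near a gene is not shown to control it. Of these genes, 2736 had 1 member and 858 had 2. Dlg2, a synaptic scaffold, and Pde4d, a cAMP phosphodiesterase, had 14 members each, of 50 and 65 regions, and span 1973.06 and 1301.79 kb. Macrod2, an ADP-ribose hydrolase whose gene spans 1997.66 kb, had 10 of 109 regions, 9.17%, close to the share over all assigned regions. Auts2 had 9 of 84 and Asap1, an Arf GTPase activator of adhesions, 8 of 49.

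The other genes with 9 members were Flt1, Stard13, Ptprk, Zfp608, Kirrel3, BC107364 and Gpx5. Flt1, a VEGF receptor, had 9 of 19 regions culture-specific, with signals in the control culture from 4.60 to 23.5. Stard13 had 9 of 50, Ptprk, a receptor tyrosine phosphatase of cell contacts, 9 of 29, Zfp608 9 of 35 and Kirrel3, an adhesion molecule, 9 of 27. BC107364 had 9 of 22 and Gpx5, a glutathione peroxidase of the epididymis, all 9 of 9. Of these, 6 of the 9 at BC107364 and 8 of the 9 at Gpx5 lay over tRNA genes, described below. Genes all of whose 5 or more regions were culture-specific were, beside Gpx5, Gm2115 (6), Tigit, an inhibitory receptor of lymphocytes (5), and Vmn1r223, a vomeronasal receptor (5), named after their values were seen. Adam12, a metalloprotease of wounds and tumours, and Celf2, a splicing regulator, each had 7 of 9.

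The 29 gene lists were read against the 7.19% of all assigned regions. A list's share lay above it in 16 lists, and the Wilson interval lay above it in 7 and below it in 2. Regions of 1 gene and neighbouring genes are not independent, so the intervals are too narrow. The median percent per gene over all genes with a region was 0.

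Genes of the mesenchymal transition, which epithelial cells switch on when they detach and migrate, had the highest share. Of their 87 regions, 20 were culture-specific, 23.0% (15.4 to 32.9), spread over 11 of 15 genes with a region, and the median per gene was 25%. Without Cald1, the member with the most, the share was 21.4% (13.4 to 32.4). Cald1, an actin-binding regulator of contraction, had 5 members of 17 regions, with signals in the control culture of 8.39, 6.83, 4.79, 11.8 and 11.7. Fn1, which encodes fibronectin of the provisional wound matrix, had 3 of 5 regions. Its values were 13.0, 15.6 and 3.95 in the control culture and 15.7, 13.1 and 5.14 in the distal culture, at 14345 to 99315 bp from its nearest end. Zeb2, a repressor of E-cadherin, had 3 of 12, the strongest at 19.4 and 20.3. None of the 5 regions of Fn1 was in all 10 lists. Prrx1, a mesenchymal homeobox factor named after its values were seen, had 1 of 4 regions, at 22.8 and 15.8. Twist1, Acta2, S100a4 and Spock1 had regions but 0 culture-specific ones.

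Matrix metalloproteinases and other matrix proteases had 18 of 106 regions, 17.0% (11.0 to 25.3), in 8 of 18 genes, and the median per gene was 0. Adam12 supplied 7 of the 18, and without it the share was 11.3% (6.45 to 19.2), an interval that includes 7.19%. The 7 Adam12 regions had control signals from 5.79 to 17.8 and distal signals from 6.39 to 16.3. The strongest lay at chr7:134236747-134237807, 12503 bp outside the gene. Timp2, a metalloproteinase inhibitor, had 3 of 10, at 5.73 or less in the control culture, and Mmp10, stromelysin 2 of wound-edge keratinocytes, had 2 of 4, the strongest at 12.9 and 12.5. Mmp13, Mmp12 and 8 further genes with regions had 0.

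Genes of the p53 pathway, cell cycle arrest and senescence had 26 of 192 regions, 13.5% (9.41 to 19.1), in 12 of 21 genes, with a median per gene of 13.6%. Cdkn2a had 4 of 8. Their signals in the control culture were 7.90, 18.9, 8.53 and 7.65, and in the distal culture 7.20, 18.6, 8.88 and 6.03. The adjoining Cdkn2b, which encodes the inhibitor p15INK4b, had a member 3937 bp from its end at 24.5 and 23.5, named after its values were seen. Lmnb1, a lamin that is lost in senescence, had 4 of 18, and Gadd45a, a stress sensor, 3 of 20, with no signal above 11.3 in the control culture. Cdkn1a, which encodes p21, had 0 of 6, and Trp53 itself 0 of 1. When only the strongest 50% of each list were used, the share of the list was 9.20% against 9.09% over all assigned regions.

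Stress keratins and wound-activated genes had 22 of 188 regions, 11.7% (7.86 to 17.1), in 10 of 18 genes, with a median per gene of 4.16%. Without Tnc the share was 9.88% (6.17 to 15.4), an interval that includes 7.19%. Tnc, which encodes the wound matrix protein tenascin C, had 6 of 26, with control signals from 4.99 to 13.4. Ptgs2, the inducible prostaglandin synthase, had 5 of 24, between 7.99 and 14.2. Fn1 had 3 of 5 and is also on the mesenchymal list. Krt6a had 1 of 5, at 6.43 and 6.31, and Krt6b, Krt16 and Krt17, the other stress keratins, had 0. When a gene had to lie within 20 kb, the share of the list was 7.09% against 6.64% over all assigned regions, and all 5 members of Ptgs2 and 5 of 6 of Tnc lay outside the gene and farther away than that.

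Fetal and reprogramming factors had 24 of 226 regions, 10.6% (7.24 to 15.3), and 10.4% (6.81 to 15.5) without Runx1, an interval that includes 7.19%. Runx1 had 4 of 33 regions and Lin28b 3 of 5, with Lin28b signals of 14.7, 11.8 and 8.21 in the control culture. Integrins and focal adhesion genes had 33 of 359, 9.19% (6.62 to 12.6), with 7 of 28 at Tln2, a talin that links integrins to actin. The YAP and TEAD pathway had 19 of 193, 9.84% (6.39 to 14.9), led by Amotl1 with 4 of 25. Genes of AP-1 and the immediate early response had 13 of 184, 7.07% (4.18 to 11.7), near the share over all assigned regions, with 3 of 21 at Jun.

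The lists whose interval lay below 7.19% were epithelial identity with the basal layer, and the Wnt pathway. Genes of epithelial identity and the basal layer had 9 of 275 regions, 3.27% (1.73 to 6.10), with 2 of 38 at Trp63, 2 at Dst and 2 at Lama3. Krt5, Krt14 and Krt15, the basal keratins, had 0 of 6, 0 of 8 and 0 of 3. Krt5 and Krt14 each had 1 region in all 10 lists, while 1 region of Krt5, 4 of Krt14 and all 3 of Krt15 were in fresh lists alone. Of the 275 regions of the list, 50 were in all 10 lists and 138 in fresh lists alone. Wnt pathway genes had 14 of 334, 4.19% (2.51 to 6.91). The intervals of the next lists include 7.19%. Epidermal differentiation genes had 8 of 177, 4.52% (2.31 to 8.66), glycolysis and hypoxia genes 9 of 217, 4.15% (2.20 to 7.69), and bulge and lower follicle genes 10 of 203, 4.93% (2.70 to 8.83). Genes of the upper follicle and the sorted lineage had 9 of 135, 6.67% (3.55 to 12.2), of which Lrig1 had 4 of 26, at 7.57 or less in the control culture.

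**Figure D4:**
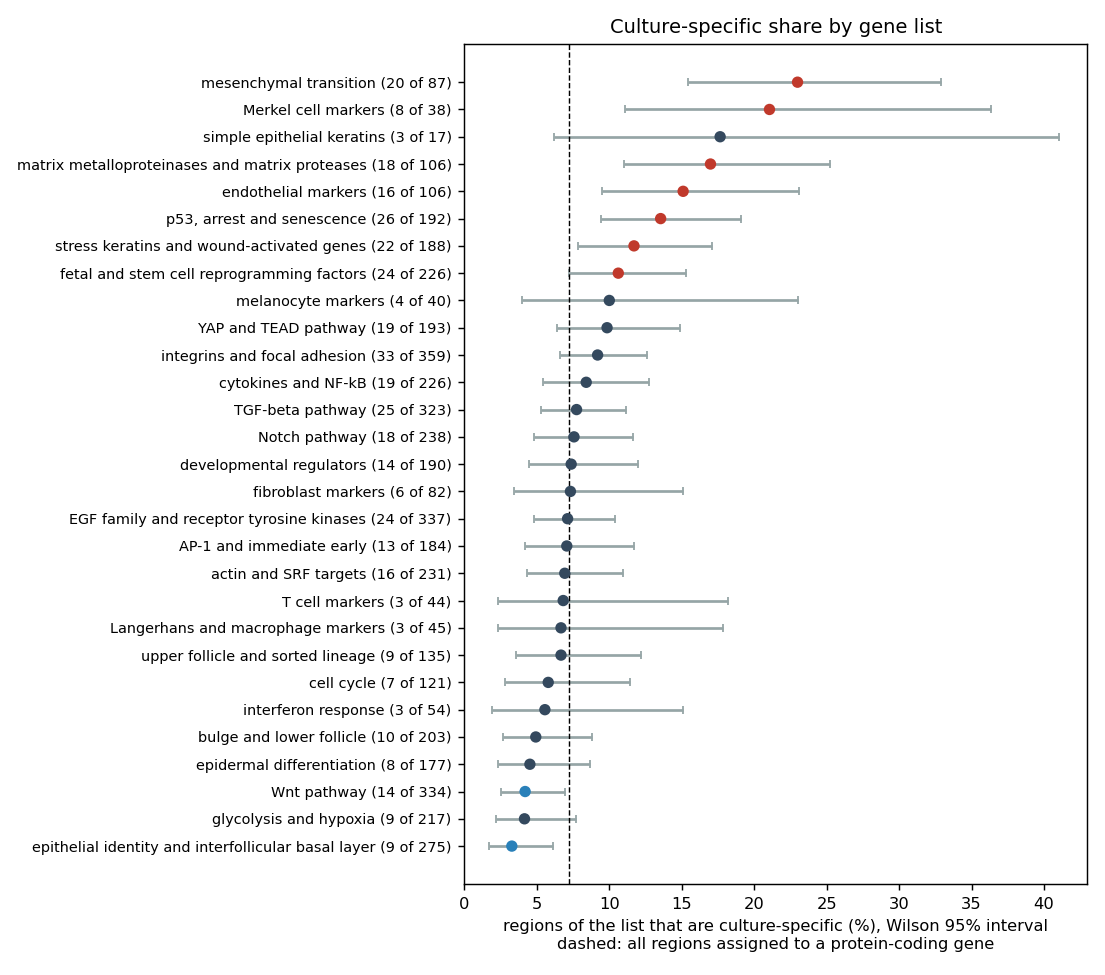
Percent of the regions assigned to the genes of each list (points, with Wilson 95% intervals) that were culture-specific, with counts in parentheses and a dashed line at 7.19%, the share over all assigned regions. Mesenchymal transition genes are highest at 23.0% and genes of epithelial identity lowest at 3.27%; red points mark the 7 lists whose interval lies above the line and blue points the 2 whose interval lies below it.

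Markers of other cell types were read in the same way. Endothelial markers had 16 of 106 regions, 15.1% (9.51 to 23.1), of which Flt1 had 9. Without Flt1 the share was 8.05% (3.95 to 15.7). Merkel cell markers had 8 of 38, 21.1% (11.1 to 36.3), of which Piezo2, a touch channel, had 6, and 9.09% (2.53 to 27.8) without it, while their defining factor Atoh1 had 0 of 2. Fibroblast markers had 6 of 82, 7.32% (3.40 to 15.1), with Col6a3 at 2 of 4, 1 each at Dcn (20.4 and 21.3), Pdgfrb (10.6 and 10.2), Col5a2 (11.8 and 10.6) and Fbln1 (5.60 and 5.26), and 0 at Col1a1, Col3a1 and Pdgfra. T cell markers had 3 of 44, Langerhans and macrophage markers 3 of 45 and melanocyte markers 4 of 40, with 0 at Cd3e, Cd207 and Pmel. Among these, Mrc1 had 1 of 2 regions (22.5 and 22.01), Csf1r 1 of 2 (17.4 and 17.7), Ptprc 1 of 7 (16.3 and 11.9), Cd28 2 of 11, Cd2 1 of 12, Mitf 3 of 21 and Dct 1 of 4. Fewer cells of a type and fewer open copies per cell cannot be told apart in bulk libraries, and the part of other cell types in the members was not tested.

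tRNA genes, which RNA polymerase III transcribes, formed a group of members of another kind. Union regions lay over tRNA genes in 201 cases. Of these, 54 were culture-specific, 26.9% (21.2 to 33.4), against 7.75% of all union regions. A further 82 were in all 10 lists and 5 in fresh lists alone. The rest were 13 in the control culture alone, 5 in the distal culture alone and 42 in other combinations of lists. The 54 members covered 61 tRNA genes for 17 amino acids, out of 254 tRNA genes with a region and 408 in the reference. On chromosome 13 there were 29 of them, among 68 union regions over tRNA genes. On chromosome 3 there were 10 among 26, and on chromosome 1 there were 5 among 17. They were weak: the median signal was 7.02 in the control culture and 6.45 in the distal culture, at percentiles 29.7 and 18.2 of those lists, with a range in the control culture from 2.97 to 20.05. With the strongest 50% of each list the share was 9.68% against 9.83% over all union regions. With lists of equal length it was 13.7% against 11.4%. tRNA genes are near-identical copies, reads can be shared between them, and these values are uncertain.

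Nearly as many members had a close neighbour as lay alone. Another member lay within 50 kb of 3838 members, 48.8% (47.7 to 49.9), and these formed 1510 runs, 75 of them with 5 or more. The share depends on how many regions a class has, so it is not compared between classes. The run with the most members, at chr3:96327927-96479829, held 14 members in 151.903 kb, 9 of them over tRNA genes, near Fcgr1 and BC107364. It held 14 other union regions, and none in all 10 lists. The next held 13 at chr13:21167958-21326503 near Trim27, Gpx5 and Gpx6, 11 over tRNA genes, with 4 regions of all 10 lists among them. The third held 10 at chr13:21847795-21937456 near H4bc24 and Zfp184, 9 over tRNA genes. The median signal of these runs in the control culture was 6.49, 7.09 and 7.78.

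The next 4 runs held no member over a tRNA gene, and their median signals, 8.40, 11.2, 10.2 and 7.88, were higher. A run of 10 at chr2:13371530-13576434 reached from Cubn over Trdmt1 to Vim. Its strongest member, at 24.2 in the control culture, lay between Cubn and Trdmt1. Vim, which encodes the intermediate filament of mesenchymal cells, had 1 member, at 8.16 in the control and 8.86 in the distal culture. Nedd4l, a ubiquitin ligase, and Basp1, a membrane protein of growth cones, each had a run of 8. Another run of 8 lay near Tnfaip3, an inhibitor of NF-kB, to which only 4 members were assigned. Without regions over tRNA genes, 48.4% of members still had another within 50 kb.

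**Figure D5:**
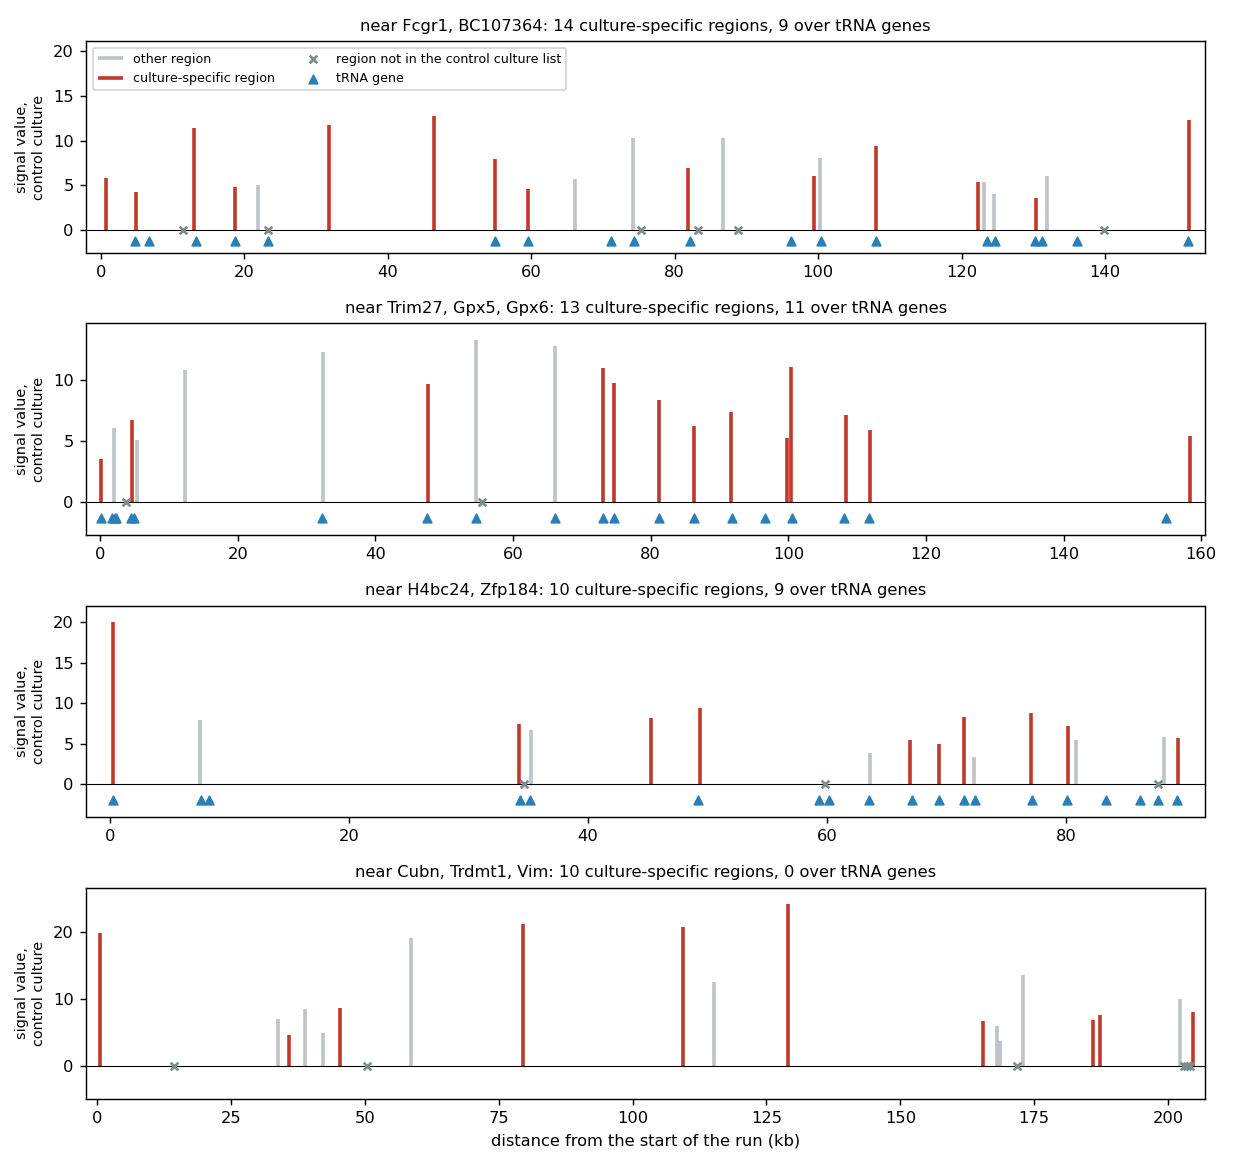
The 4 runs with the most members, each from its start (x axis, kb): bars give the signal value in the control culture of members (red) and of other union regions (grey), crosses mark regions not in that list and triangles tRNA genes. In the upper 3 runs 9 of 14, 11 of 13 and 9 of 10 members lie over tRNA genes, and in the run near Cubn, Trdmt1 and Vim none do.

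Gene families were picked with their values known, and are set beside the 7.19% of all assigned regions. Prolactin family genes, which are expressed in placenta, had 22 of 30 regions culture-specific, 73.3% (55.6 to 85.8), and 0 in all 10 lists. Within it the proliferins Prl2c2, Prl2c3 and Prl2c5 had 12 of 17, with control signals from 9.83 to 24.8 and distal signals from 9.13 to 26.6. Fc gamma receptor genes had 11 of 29, 37.9% (22.7 to 56.0), of which 8 lay over tRNA genes. The adamalysins, the family of Adam12, had 40 of 214, 18.7% (14.0 to 24.4). Olfactory receptors had 32 of 173, 18.5% (13.4 to 24.9), and keratins 9 of 176, 5.11% (2.71 to 9.43), an interval that includes 7.19%. Copies of these genes lie side by side, and reads could be shared between them.

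Of 135 union regions over microRNA genes, 4 were culture-specific, 2.96% (1.16 to 7.37), against 7.75% of all union regions. Mir206, a microRNA of muscle, had 2 members within 1 kb, at chr1:20678008-20678372 with signals of 11.1 and 9.23 and at chr1:20678784-20679242, over the hairpin, with 12.5 and 9.07. Its main mature product is printed with the seed, bases 2 to 8, in capitals, from RefSeq.
mmu-miR-206-3p: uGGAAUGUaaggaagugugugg

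Over the autosomes and X the share of union regions that were members ran from 6.23% on chromosome 19 to 9.64% on chromosome 13. The Y chromosome had 3 members of 21 union regions, 14.3% (4.98 to 34.6), 1 of them inside Uty at 12.7 and 12.4 and 2 near Gm52481 at 2.42 and 4.55 in the control culture, the former the lowest signal of any member. Since the sex of the animals is not given, the Y-linked members cannot be told apart from a difference in sex between groups. Leaving out chromosomes X and Y gave 7681 members.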

How the data were processed

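ATAC-seq libraries were made from sorted cells cut with Tn5, per the labels' protocols. The authors deposited 1 narrowPeak list per group, made from its 2 libraries, on the build mm10, which the submitters' processing notes name. Neither they nor the labels state the aligner, the peak caller or the depth. The deposited columns used are a score (540 or more), a signal value, −log10 p (2.00 or more) and the summit offset. Signal values are the authors' and are used only to describe or rank peaks within a list.

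Peaks were merged by 1 bp overlap with Python 3.11.15, numpy 2.4.6 and pandas 2.3.3, and checked with bedtools 2.31.1. The rule was also run on artificial intervals planted in the real lists, which checks the code alone. Wilson 95% intervals were computed with scipy 1.17.1 and figures drawn with matplotlib 3.10.9. With 1 list per group, no test between groups was possible. Genes, promoters, tRNA genes and microRNAs came from RefSeq tables for GRCm38.p6, with 21887 protein-coding genes. Of the 509 genes on the 29 lists, 507 matched, 4 through older symbols. The promoter table covers 17492 protein-coding genes and no window on chromosome 18.

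Named genes are the 12 genes with the most members (predicted genes left out), the leading members of the gene lists, the genes of the strongest members in each cultured list and at gene ends, and those of the runs with the most members. 1 of the strongest members in the distal culture is not reported here. The members, lists and motifs were chosen with earlier results of these data known. Alternatives were another merging distance, stronger peaks, lists of equal length, either cultured list, subsets of the fresh lists and other distances. Alternatives on sex chromosomes, tRNA genes, start sites, promoter windows and leading genes were chosen after seeing the data.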

Additional observations from a re-analysis of the deposited data

How the results depend on the processing

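The lists hold no value per library, so replicates could not be left out, and the 8 fresh lists were left out in turn instead. No paired analysis was possible because each list merges both libraries of its group. The planned motif search around summits and its narrower alternative could not be run without a genome sequence, and promoter windows took their place. The cause of a change in value was not tested where none is given.

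Of 203 alternative values of the main results, 162 stayed within the interval of the main value (shares) or within 1.5 times of it (counts) and 41 moved. Leaving out 1 fresh list gave 7863 to 8441 members and moved 1 value, the share with a neighbour, to 50.6% without UVB. The number of members was 3303 with the strongest 50% of the cultured lists against whole fresh lists, 13999 with either cultured list and 13336 with only homeostasis and the wound time course as fresh lists, and the numbers of genes were 1987, 6363 and 6265. The share at gene ends was 3.66% with no fresh peak within 1 kb, 5.69% with the strongest 50% of each list, 2.57% with those of the cultured lists, 6.38% with the time course alone and 2.40% within 500 bp. The share with a neighbour was 46.5% with peaks within 200 bp merged, 44.7% with no fresh peak within 1 kb, 35.0% and 26.1% with the strongest 50% of each and of the cultured lists, 45.1% with lists of equal length, 62.9% with either cultured list, 63.6% with the time course alone and 30.5% within 20 kb. The share over tRNA genes was 18.9%, 9.68%, 4.48%, 13.7% and 35.8% with no fresh peak within 1 kb, the strongest 50% of each list, those of the cultured lists, equal length and either list. TGANTCA was in 13.8% of windows with the strongest 50% of each list, 40.0% with those of the cultured lists and 14.2% with the time course alone.

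Shares of gene lists move with the share over all assigned regions, which was 9.09% for the strongest 50% of each list, 2.86% for those of the cultured lists, 10.5% with equal length, 13.0% with either list, 16.4% with the time course alone and 6.64% within 20 kb. Mesenchymal genes had 9.20% with the strongest 50% of the cultured lists and 33.3% with the time course alone. Matrix proteases had 7.55% and 30.5%. Genes of p53 and senescence had 3.13% and 29.2%, 9.20% with the strongest 50% of each list and 20.8% with either list. Stress and wound genes had 4.79% and 28.7%, 17.8% with the strongest 50% of each list, 17.1% with equal length and 7.09% within 20 kb. Of 510 values of the other lists and of the shares over all regions, 412 stayed and 98 moved, counted in the same way.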
